A study of Mus musculus with 4 samples.

Results

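The 10 inflammatory genes of the mouse, Il1b, Tnf, Ccl2, Ccl3, Ccl4, Cxcl2, Nfkbia, Nlrp3, Tlr4 and Ptgs2, were followed in single cells of the testis. They were taken by symbol, and all 10 were found, each once, among the 55450 genes of the deposited matrices. Testes from mice fed a high-fat diet (HFD) were compared with those from mice fed a normal diet (ND), with 2 libraries of each, named here HFD 1, HFD 2, ND 1 and ND 2. The labels give the diet and the tissue of each library but no strain, age or length of feeding, and they do not say whether the libraries of a diet came from separate mice. The p-values below therefore measure the spread between libraries, which may be technical. Each testis was digested with collagenase, dispase and DNase for 30 min at 37 °C before its cells were loaded for 10x Genomics 3′ droplet sequencing, in which each captured RNA molecule carries a unique molecular identifier (UMI).

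Interleukin 1 beta, encoded by Il1b, and tumour necrosis factor, encoded by Tnf, are the early cytokines of innate immune cells. They are made when sensors such as the lipopolysaccharide receptor Tlr4 start a kinase cascade that releases the transcription factor NF-kB from its inhibitor, which Nfkbia encodes. NF-kB then raises Il1b, Tnf, the chemokine genes Ccl2, Ccl3, Ccl4 and Cxcl2, the cyclooxygenase gene Ptgs2 and, as a feedback, Nfkbia itself, while Nlrp3 builds the inflammasome in which the interleukin precursor is cut into its active form. The testis holds resident macrophages in the interstitium and around the tubules, which are known for a muted inflammatory response that spares the germ cells.

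The libraries held 13561 to 15290 barcodes, beside about 13000 cells per channel stated in the protocol, and 143748262 to 154221188 UMIs. After removal of 18, 13, 42 and 37 barcodes with few genes or many mitochondrial UMIs and of 421, 853, 780 and 756 called doublets (HFD 1, HFD 2, ND 1, ND 2), 13122 to 14468 cells per library were kept. Pairs of libraries shared 34 to 59 barcodes. Clusters were named from marker lists, and 1 cluster of 383 cells was macrophage-like, with all 10 of its markers detected and Cd74, Lyz2, Apoe and C1qa leading. It held 86, 83, 108 and 106 cells, which is 0.655%, 0.615%, 0.746% and 0.767% of the kept cells. A lymphocyte-like cluster of 74, 72, 87 and 79 cells was led by Igkc, Ighm, S100a6 and Cd52. Of its 12 markers 11 were detected, with the B cell gene Ms4a1 at 0. It also held T and NK cell genes, among them Cd3g at 49, 56, 80 and 79 UMIs and Nkg7 at 79, 63, 77 and 70 UMIs. Neutrophil genes bore on the naming, because neutrophils also make Il1b and Cxcl2: in the macrophage-like cells S100a8, S100a9, Retnlg, Mmp9 and Cxcr2 were at 0 UMIs, as were all 6 mast cell markers and the monocyte genes Ly6c2 and Chil3. The remaining neutrophil marker, Csf3r, gave 8, 5, 5 and 2 UMIs (HFD 1, HFD 2, ND 1, ND 2), and the other 4 of 6 monocyte markers summed to 84.4, 17.6, 20.1 and 32.8 CPM, in HFD 1 mostly from Fn1 and Plac8. All 6 dendritic cell markers were detected, at 10.6 to 62.9 CPM in sum. RNA of germ cells was present in them in every library, with the list of elongating spermatid markers at 11477 to 17733 CPM (UMI counts scaled to a common depth).

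The stretch before the gene start, where the NF-kB consensus was searched, is shown for 4 of the genes. These 4 include the gene that differed most by diet, Il1b, and others that did not pass the test. RefSeq, on build GRCm38.p6, gave a promoter for 7 of the 10 genes, not for Ccl2, Ccl4 and Tlr4. The NF-kB consensus, searched by name on both strands, is in capitals.
Il1b, chr2:129371140-129371389, minus strand: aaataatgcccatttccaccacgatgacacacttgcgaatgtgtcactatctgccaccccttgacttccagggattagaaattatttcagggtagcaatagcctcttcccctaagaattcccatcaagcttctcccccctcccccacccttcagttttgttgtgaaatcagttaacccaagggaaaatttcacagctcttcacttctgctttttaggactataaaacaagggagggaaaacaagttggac
Tnf, chr17:35202008-35202257, minus strand: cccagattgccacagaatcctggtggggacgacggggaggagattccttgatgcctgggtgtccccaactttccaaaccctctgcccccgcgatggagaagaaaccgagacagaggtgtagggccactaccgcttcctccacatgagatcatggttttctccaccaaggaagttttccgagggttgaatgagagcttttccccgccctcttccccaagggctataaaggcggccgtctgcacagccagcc
Cxcl2, chr5:90903649-90903870, plus strand: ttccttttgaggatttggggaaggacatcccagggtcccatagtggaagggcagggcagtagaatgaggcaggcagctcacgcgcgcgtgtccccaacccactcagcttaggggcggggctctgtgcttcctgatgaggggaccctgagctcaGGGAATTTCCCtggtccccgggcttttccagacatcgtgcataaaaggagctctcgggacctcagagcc
Nfkbia, chr12:55492648-55492897, minus strand: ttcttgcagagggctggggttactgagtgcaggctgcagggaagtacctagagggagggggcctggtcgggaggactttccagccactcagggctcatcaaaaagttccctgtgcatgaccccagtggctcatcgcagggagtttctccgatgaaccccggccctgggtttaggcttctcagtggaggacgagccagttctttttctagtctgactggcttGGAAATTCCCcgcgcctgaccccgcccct
The Cxcl2 stretch has 222 bases, because its RefSeq window of 250 bases reaches into the gene and is printed only up to the GENCODE gene start. The others have 250, and all are read 5′ to 3′ toward the gene. At Cxcl2 the NF-kB consensus lay 97 to 87 bases before the end of the full window of 250, thus nearer to the GENCODE start. Matches on either strand overlap there. At Nfkbia the consensus lay 29 to 20 bases before the gene start. It was also found at Nlrp3, and in 3.899% of 32851 mouse promoters. No letters of the consensus stood in these windows of Il1b, Tnf, Ccl3 and Ptgs2, which says nothing of sites farther out. The letters TATAAA, searched on both strands, stood 31 to 26 bases before Il1b and 29 to 24 bases before Tnf, and in 12.4% of all promoters. The AP-1 letters TGANTCA were in none of the 7 promoters and in 6.75% of all.

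All 10 genes had their highest mean level in the macrophage-like cells, on the scale of plain CPM, in which the UMIs of a gene are divided by all UMIs of the cells of that type in a library. For Il1b (ENSMUSG00000027398, chr2:129364570-129371139, minus strand, build GRCm38), the level in macrophage-like cells was 206 ± 149 CPM (SD, n = 4 libraries) and in round spermatids, the next type with a steady level, 1.601 ± 0.211 CPM, a 129-fold lower mean. No Il1b UMI was seen in the 312 lymphocyte-like cells, where 3 counts would have stood for 11.3 to 16.9 CPM per library. The chemokine genes Ccl3 (ENSMUSG00000000982, chr11:83647844-83649355, minus strand) and Ccl4 (ENSMUSG00000018930, chr11:83662584-83664683, plus strand) lie near each other and encode ligands that draw T cells and monocytes. Ccl4 stood at 501 ± 235 CPM in macrophage-like and 124 ± 53.7 CPM in lymphocyte-like cells, 4.03-fold apart, and the library ranges did not overlap. Ccl3 stood at 200 ± 37.7 and 26.2 ± 15.5 CPM in the same pair of types, again without overlap. Tnf (ENSMUSG00000024401, chr17:35199381-35202007, minus strand) followed the same order, with 56.7 ± 16.9 CPM in macrophage-like and 18.8 ± 4.15 CPM in lymphocyte-like cells.

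Ccl2 (ENSMUSG00000035385, chr11:82035571-82037453, plus strand), the monocyte chemoattractant, stood at 91.9 ± 23.5 CPM in macrophage-like cells and at 4.46 ± 5.49 CPM in fibroblast-like cells, on 3 UMIs in the latter. The neutrophil chemoattractant Cxcl2 (ENSMUSG00000058427, chr5:90903871-90905938, plus strand) had 87.0% of its 346 UMIs in macrophage-like cells, at 242 ± 45.2 CPM. Nfkbia (ENSMUSG00000021025, chr12:55489410-55492647, minus strand) was the most widely spread of the 10, with 22.2% of its 1434 UMIs in macrophage-like cells. Its level was 253 ± 19.6 CPM there and 217 ± 66.1 CPM in lymphocyte-like cells, and these ranges overlapped. Below them came Leydig-like cells, the steroid producers, with 60.7 ± 1.74 CPM, fibroblast-like cells with 56.01 ± 38.6 CPM and Sertoli-like cells, the somatic cells of the tubule, with 23.6 ± 9.23 CPM, each overlapping the next. In pachytene, round and elongating germ cells Nfkbia stayed between 0.268 and 0.371 CPM.

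The sensors and Ptgs2 were sparse. Nlrp3 (ENSMUSG00000032691, chr11:59541568-59566956, plus strand) gave 28 UMIs in all 4 libraries, of which 24 were in macrophage-like cells at 19.6 ± 6.06 CPM. Tlr4 (ENSMUSG00000039005, chr4:66827584-66930284, plus strand) gave 52 UMIs, 21 of them in macrophage-like cells and 21 in round spermatids, and its macrophage level of 16.4 ± 6.71 CPM overlapped that of fibroblast-like cells. Ptgs2 (ENSMUSG00000032487, chr1:150100031-150108227, plus strand) gave 28 UMIs, 16 of them in macrophage-like cells. None of these 3 genes had a UMI in a lymphocyte-like cell. The plot of levels by cell type shows the contrast between the macrophage-like cells and all others.

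**Figure D1:**
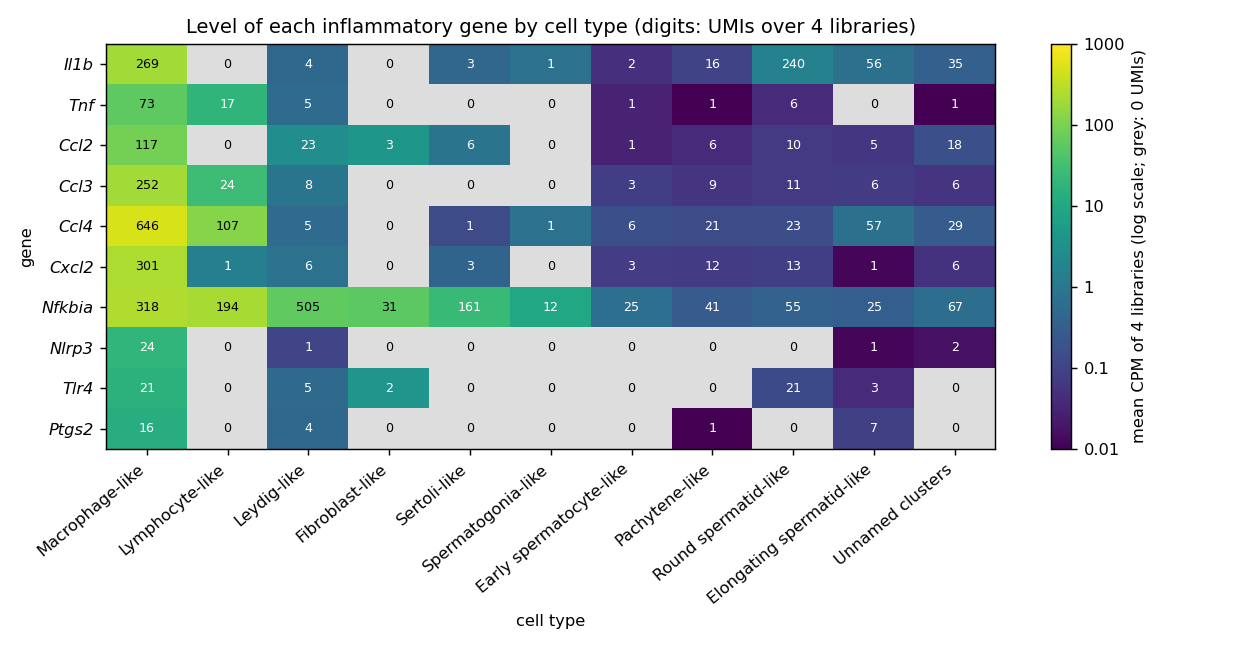
Heat map of the mean level of each of the 10 inflammatory genes (vertical axis) in each cell type (horizontal axis), coloured by mean CPM of 4 libraries on a log scale, with grey for 0 UMIs and digits for the UMIs of all libraries. The macrophage-like column is highest for every gene, and Il1b stands out in round spermatids with 240 UMIs at a low CPM.

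The Il1b signal outside macrophages was largely in round spermatids, the haploid germ cells before elongation. These cells gave 52 and 60 Il1b UMIs under HFD and 70 and 58 under ND. Of the round spermatids 2.29%, 2.54%, 2.19% and 1.90% had an Il1b UMI, with exact binomial 95% intervals from 1.44% to 3.28% that cover counting error only. The same cells gave 23 Ccl4 UMIs in all, against 240 of Il1b, whereas the macrophage-like cells gave 646 of Ccl4 and 269 of Il1b, so the genes did not keep 1 ratio across the types. The antisense gene Il1bos shares exon sequence with Il1b. Whether the counting used strand is not given in the sources used here, so reads of the shared sequence cannot be told apart. Il1bos itself was counted at 8, 8, 7 and 10 UMIs (HFD 1, HFD 2, ND 1, ND 2) in round spermatids and at 0 in macrophage-like and lymphocyte-like cells. In pachytene cells it gave 27, 32, 21 and 13 UMIs, where Il1b gave 6, 2, 5 and 3. What Il1bos reads add to the Il1b counts was not tested.

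Diet was compared on the UMIs of each cell type summed per library, so that the library and not the cell was the replicate. In macrophage-like cells Il1b and Ccl4 fell under HFD, and the 5 other genes that passed the filter on low counts, Tnf, Ccl2, Ccl3, Cxcl2 and Nfkbia, did not pass the test. Of all 5641 genes tested in these cells 1.76% passed at an adjusted p under 0.05 and 1.38% were lower in HFD. Of the 7 inflammatory genes tested 2 were lower. The 10 genes were chosen with earlier results of these data known, so this contrast is no test of the group. The median log2 ratio of the 7 was -0.26, beside -0.0031 over all genes tested. Nlrp3, Tlr4 and Ptgs2 were too sparse to be tested.

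Il1b gave 23 and 23 UMIs in the HFD libraries and 98 and 125 in the ND libraries. In CPM scaled by trimmed means (TMM), the scale of all diet comparisons here, this was 82.4 and 89.0 against 376 and 384. Both HFD libraries lay far below both ND libraries, and the libraries of a diet lay close together. The means were 85.7 ± 4.66 and 380 ± 5.38 (SD, n = 2), a ratio of -2.15 on the log2 scale (SE 0.24) or 4.42-fold more in ND, with an adjusted p of 2.4e-15 by edgeR's quasi-likelihood test with Benjamini-Hochberg adjustment.

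Ccl4 gave 78 and 100 UMIs under HFD and 197 and 271 under ND, or 280 and 387 against 756 and 832 TMM-scaled CPM. Here too the diets did not overlap. The means were 333 ± 76.0 and 794 ± 53.7 (SD, n = 2), a ratio of -1.26 on the log2 scale (SE 0.17) or 2.40-fold more in ND, with an edgeR adjusted p of 3.1e-11. With 2 libraries per diet an exact permutation of the labels could not go below p = 0.3333, so both calls rest on the spread that edgeR shares across genes. Across 15 other settings of scaling, filtering, clustering and left-out libraries, Il1b ranged from -2.28 to -2.05 and Ccl4 from -1.49 to -1.05, all past the threshold. One of these settings, a mitochondrial limit of 10%, repeated the main run in these cells.

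Tnf gave 16 and 11 UMIs under HFD and 17 and 29 under ND. In all later lists of 4 values the order is HFD 1, HFD 2, ND 1, ND 2. Its HFD libraries were below both ND libraries, at 49.97 ± 10.4 against 77.2 ± 16.8 TMM-scaled CPM (SD, n = 2), but the log2 ratio of -0.64 (SE 0.37) did not pass (edgeR adjusted p = 0.66). In simulated counts of the same depth edgeR recovered 46.2% of 2-fold and 97.8% of 4-fold changes. These shares cover genes of all levels, simulated with a common spread, and are not the recovery at the counts of Tnf.

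The remaining chemokines did not pass the test, and their diets overlapped. Ccl3, the neighbour of Ccl4, gave 45, 64, 60 and 83 UMIs, a ratio of -0.26 on the log2 scale (SE 0.22, edgeR adjusted p = 0.88). Ccl2 gave 33, 25, 18 and 41 UMIs, a ratio of 0.11 on the log2 scale (SE 0.30, edgeR adjusted p = 0.99). ND 1 was the lowest library for Ccl2 and ND 2 the highest.

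Cxcl2 gave 91, 67, 75 and 68 UMIs, a ratio of 0.26 on the log2 scale (SE 0.21, edgeR adjusted p = 0.86). Of the 91 UMIs of HFD 1, 45 were in 1 cell, and without the top cell of each library the log2 ratio was 0.0079. Few cells carried this gene at a high level: 11.6%, 14.5%, 12.04% and 10.4% of macrophage-like cells had a Cxcl2 UMI.

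Nfkbia, the NF-kB inhibitor that NF-kB itself raises, gave 82, 65, 81 and 90 UMIs in macrophage-like cells. The diets overlapped at 273 ± 29.9 and 294 ± 24.5 TMM-scaled CPM (SD, n = 2), a ratio of -0.10 on the log2 scale (SE 0.21, edgeR adjusted p = 0.99). Of the untested genes Nlrp3 gave 7, 7, 6 and 4 UMIs and Tlr4 gave 6, 5, 2 and 8. Ptgs2 gave 12, 0, 2 and 2 UMIs, with 7 of the 12 in 1 cell of HFD 1. At these counts no diet difference was detectable for the 3 genes.

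**Figure D2:**
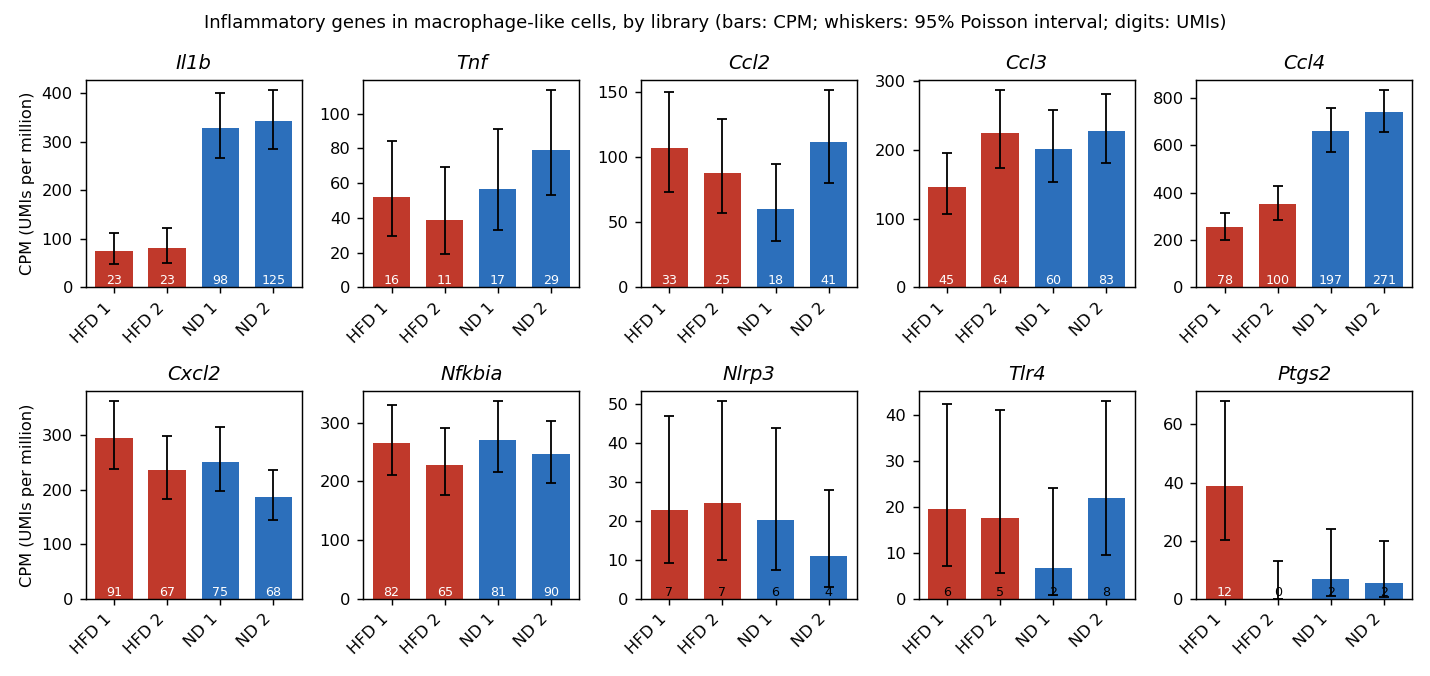
Level of the 10 inflammatory genes in macrophage-like cells, with 1 bar per library in plain CPM from 0, whiskers for the 95% Poisson interval of counting error and digits for UMIs. In Il1b and Ccl4 the HFD bars, from 74.7 to 80.9 and from 253 to 352, lie below the ND bars, from 328 to 342 and from 660 to 741, with no overlap of the whiskers.

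For Il1b both the share of cells with a UMI and the UMIs in those cells were lower in each HFD library than in each ND library. Il1b was detected in 12.8% and 10.8% of macrophage-like cells under HFD and in 19.4% and 23.6% under ND, with exact 95% intervals of 6.56% to 21.7%, 5.08% to 19.6%, 12.5% to 28.2% and 15.9% to 32.8%. The cells with Il1b held on average 2.09 and 2.56 Il1b UMIs under HFD and 4.67 and 5 under ND. Depth differed the other way, with medians of 3204 and 2613 UMIs per macrophage-like cell under HFD and 2263 and 2444 under ND.

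Thinned to 2000 UMIs, which left out 19, 14, 38 and 35 shallower cells, the shares for Il1b were 14.9%, 11.6%, 12.9% and 12.7%. These shares do not follow the CPM, and no order was read from them. Ccl4 was detected in 18.6%, 16.9%, 21.3% and 30.2% of cells, and the cells with Ccl4 held 4.88, 7.14, 8.57 and 8.47 UMIs of it. Il1b and Ccl4 were found together in 4, 5, 14 and 18 cells, while 45.3%, 37.3%, 32.4% and 24.5% of macrophage-like cells had no UMI of any of the 10 genes.

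The macrophage-like cells were not uniform. They were clustered again without the 10 genes, the pathway, immediate early and interferon-induced genes listed below, and every gene called between the diets. They fell into 5 groups. A group of 87 cells led by Slpi, H2-Eb1 and Cd74 held 70.3% of the Il1b UMIs, 76.8% of those of Ccl4, 70.8% of Cxcl2, 68.5% of Tnf and 57.1% of Ccl3. A group of 200 cells led by Apoe, Selenop and F13a1 held 60.7% of the Ccl2 UMIs. The Slpi-led group held fewer Ccl2 UMIs, but its Ccl2 level of 502, 269, 39.95 and 160 CPM (HFD 1, HFD 2, ND 1, ND 2) was above the 106, 106, 92.4 and 196 CPM of the Apoe-led group in the HFD libraries and below it in the ND libraries. A group of 75 cells was led by Defb19 and the germ cell gene Piwil1, with 1 germ cell marker among its 12 leading genes. Defb19 also stood at 1745 to 2257 TMM-scaled CPM in Sertoli-like cells, so the RNA of this group was mixed. A group of 7 cells was led by spermatid genes, and both groups are called germ-led here. A group of 14 cells was led by Naaa and carried the dendritic cell genes Xcr1, Cd207 and Irf8.

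The Slpi-led group made up 16.3% and 14.5% of the macrophage-like cells under HFD and 25.9% and 31.1% under ND. The germ-led group of 75 cells made up 34.9% and 25.3% under HFD and 12.04% and 10.4% under ND, and gave 0, 7, 0 and 2 Il1b UMIs. These shares were not tested, and Il1b and Ccl4 were called without the germ-led groups too, with smaller ratios. Within the Slpi-led group Il1b gave 14 and 13 UMIs from 14 and 12 cells under HFD, and 78 and 84 UMIs from 28 and 33 cells under ND. This was 1.00 and 1.08 UMIs per cell against 2.79 and 2.55, so the diets did not overlap within the group either. Ccl4 gave 3.71 and 5.08 UMIs per cell under HFD against 6.04 and 6.48 under ND. The group of 7 cells, led by the spermatid gene Tnp2, added 5 Il1b UMIs to ND 1 and 24, from 2 cells, to ND 2.

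Fitted on the Slpi-led group alone, a choice made after seeing the data, Il1b was lower under HFD by a log2 ratio of -1.71 (edgeR adjusted p = 0.0025), where 0.238% of 839 genes passed. Ccl4 did not pass there (log2 ratio -0.87, edgeR adjusted p = 0.11), nor did Nfkbia, which was higher under HFD with 3.43 and 1.83 UMIs per cell against 1.04 and 1.09 (log2 ratio 0.96, edgeR adjusted p = 0.11). Ccl2 had the widest ratio of the 7 genes in that fit, higher under HFD at 1.79 on the log2 scale, and did not pass (edgeR adjusted p = 0.21); it rested on 18, 7, 2 and 11 UMIs from 3, 2, 2 and 6 cells. Another fit left out the germ-led groups of the clustering that kept genes called between the diets. There Il1b fell by 1.82 (edgeR adjusted p = 3.3e-08) and Ccl4 by 1.18 (edgeR adjusted p = 1.8e-07) on the log2 scale, and 1.84% of 4242 genes passed. Those fits hold fewer cells and genes, and they weigh each library by few cells.

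Splitting the macrophage-like cells by markers of tissue-resident macrophages gave another view. The sets held 62, 69, 71 and 63 cells with and 24, 14, 37 and 43 cells without a UMI of these markers. Median depth was 3369.5, 2685, 2399 and 2568 UMIs per cell with such a UMI and 2208.5, 2285, 1645 and 1899 without. The split rests on detecting 1 UMI and so is not independent of depth, whose part was not tested. In cells with at least 1 UMI of the resident markers, Il1b gave 8, 15, 16 and 17 UMIs and Ccl4 44, 18, 24 and 16, and neither passed (log2 ratios -0.75 and 0.40, edgeR adjusted p = 0.58 and 0.81). Cxcl2 rose in those cells (log2 ratio 1.82, edgeR adjusted p = 8.6e-07, with 2.36% of 4823 genes passing), from 86 and 31 UMIs under HFD against 20 and 8, but 45 of the 86 were in the 1 cell already named. In cells with no resident marker UMI Il1b gave 15, 8, 82 and 108 UMIs, or 0.625, 0.571, 2.22 and 2.51 per cell. It fell there (log2 ratio -2.06, edgeR adjusted p = 0.025, with 0.143% of 1398 genes passing). Ccl4 gave 34, 82, 173 and 255 UMIs, or 1.42, 5.86, 4.68 and 5.93 per cell, and did not pass (log2 ratio -0.85, edgeR adjusted p = 0.99).

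**Figure D3:**
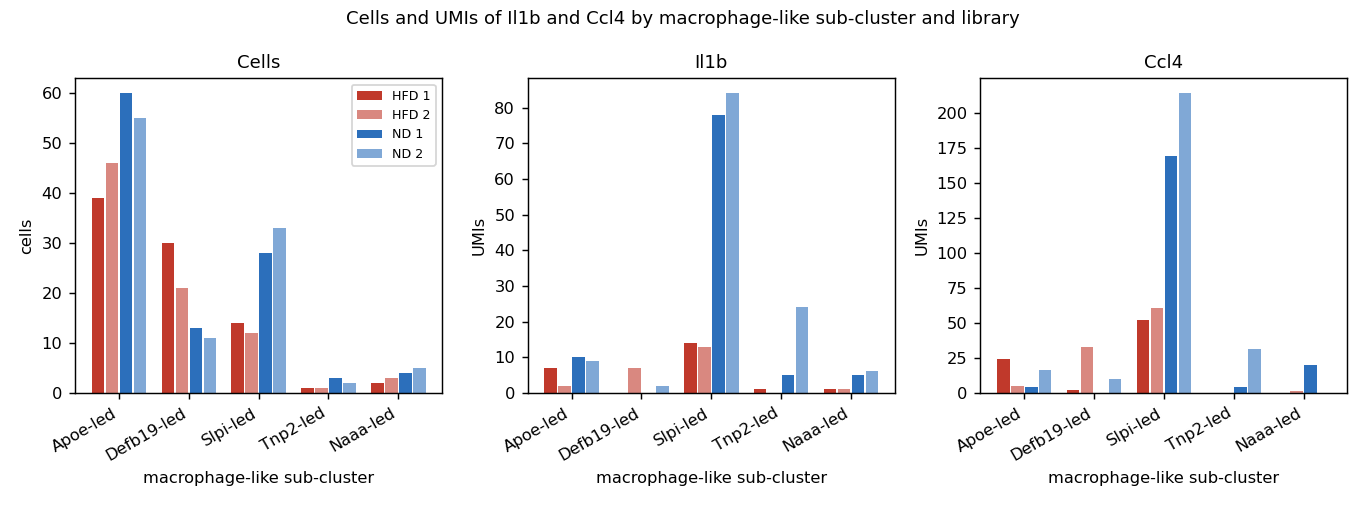
Number of cells (left) and UMIs of Il1b (middle) and Ccl4 (right) in each group of macrophage-like cells, named by its leading gene, with 1 bar per library. The Slpi-led group holds most UMIs of both genes, with 14 and 13 Il1b UMIs under HFD and 78 and 84 under ND.

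Several other measures moved with the diet in the macrophage-like cells, and their part in the Il1b and Ccl4 results was not tested. The list of MHC class II macrophage markers, all 6 of them detected, summed to 5201 and 5515 CPM under HFD and 10033 and 10542 under ND. The whole list of 10 macrophage markers summed to 9545 and 10295 CPM against 11791 and 13766. Leydig markers, 6 of 7 detected with Lhcgr at 0, ran the other way at 134 and 325 CPM against 49.2 and 70.3. The resident macrophage list overlapped between the diets, at 1321 to 1354 against 1222 to 1677 CPM with Lyve1 at 0. Of the germ cell lists those of pachytene, round and elongating cells overlapped, whereas the spermatogonia list was higher under HFD (87.7 and 102 against 56.9 and 65.6 CPM), as was that of early spermatocytes by a narrow margin (503 and 591 against 418 and 500). Fibroblast markers, 3 of 8 detected, were lower under HFD (35.7 and 31.7 against 53.6 and 54.7 CPM), and the neutrophil list, carried by Csf3r alone, was higher (26.0 and 17.6 against 16.7 and 5.47 CPM).

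Immediate early genes are known to respond to stress and to tissue digestion. Of these, 20 of 21 were tested in macrophage-like cells, 7 were lower under HFD and 0 higher, with a median log2 ratio of -0.45. Among them Atf3 stood at a log2 ratio of -1.04 (edgeR adjusted p = 0.00034), Klf2 at -0.85 (edgeR adjusted p = 0.00034) and Jund at -0.69 (edgeR adjusted p = 0.0023). Interferon-induced genes, the antiviral group, were lower as well, 14 of 15 tested with a median of -2.56. These falls were not limited to macrophage-like cells. In lymphocyte-like cells 3 of 5 interferon-induced and 1 of 14 immediate early genes tested were lower, beside 0.304% of all genes called. The whole testis, a sum that includes the macrophage-like cells, had 18 of 19 and 11 of 21 lower, with 1 immediate early gene higher. There 18.9% of all genes were lower and 34.3% were called in either direction. Both lists moved beside Il1b and Ccl4, and their share in the change was not tested.

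The wider pathway in macrophage-like cells was mostly not called. Of 20 further cytokine and chemokine ligands 8 could be tested and 1 fell, with a median log2 ratio of -0.58. That gene was Ccl12, a monocyte chemoattractant like Ccl2, with 21 and 14 UMIs under HFD and 91 and 99 under ND. Its log2 ratio was -2.31 (SE 0.27, edgeR adjusted p = 2.9e-15), and its diets did not overlap. Ccl7 gave 14, 16, 28 and 40 UMIs (log2 ratio -1.05, edgeR adjusted p = 0.073) and Cxcl10 gave 16, 15, 31 and 32 (log2 ratio -0.90, edgeR adjusted p = 0.21), without a call.

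Of the receptors of these ligands 4 of 14 could be tested and none passed, with a median of -0.25. The other sensors and adaptors had 4 of 20 tested and none called, among them the lipopolysaccharide co-receptor Cd14 (log2 ratio -0.41, edgeR adjusted p = 0.50) and the lipopeptide receptor Tlr2 (log2 ratio -0.25, edgeR adjusted p = 0.98). Inflammasome genes had 4 of 10 tested and none called, with Casp1, the protease that cuts the interleukin 1 beta precursor, at 14, 10, 15 and 11 UMIs (log2 ratio 0.0043). The NF-kB subunits, kinases and inhibitors had 9 of 18 tested and none called, with a median of -0.27, among them Nfkb1 at a log2 ratio of 0.094 and the feedback inhibitor Tnfaip3 at 0.19.

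Of the 11 genes of prostaglandin and leukotriene synthesis other than Ptgs2, 7 were tested, 1 rose and 1 fell. Ptgds, the prostaglandin D synthase, gave 78, 20, 19 and 16 UMIs (log2 ratio 1.59, edgeR adjusted p = 1.4e-05), with HFD 1 far above the other libraries and HFD 2 close to ND 1. Sertoli-like cells also held Ptgds, at 109 to 151 TMM-scaled CPM. The Sertoli marker list summed in macrophage-like cells to 269, 80.9, 127 and 164 CPM, highest in HFD 1 too, and its part was not tested. Alox5ap, the helper protein of leukotriene synthesis, gave 42, 33, 70 and 89 UMIs (log2 ratio -0.96, edgeR adjusted p = 0.0040), with no overlap.

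In lymphocyte-like cells 2 of the 10 genes could be tested, and neither passed, beside 0.304% of 4604 genes that did. Without adjustment 320 genes had an edgeR p under 0.05, and DESeq2 called 1 gene. Ccl4 gave 26, 14, 34 and 33 UMIs, and both HFD libraries were below both ND libraries at 93.8 ± 27.7 against 196 ± 33.8 TMM-scaled CPM (SD, n = 2). The log2 ratio was -1.02 (SE 0.32, edgeR adjusted p = 0.23). The macrophage ratio minus the lymphocyte ratio of Ccl4 was -0.24 (SE 0.38, edgeR adjusted p = 0.99), so the change was not shown to differ between the cell types.

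Nfkbia ran the other way in lymphocyte-like cells, with 67, 61, 30 and 36 UMIs and both HFD libraries above both ND libraries. The log2 ratio was 0.68 (SE 0.25, edgeR adjusted p = 0.43), and the difference from the macrophage ratio was -0.77 (SE 0.33, edgeR adjusted p = 0.93). Tnf gave 6, 3, 5 and 3 UMIs and Ccl3 11, 1, 7 and 5. Cxcl2 had 1 UMI, and Il1b, Ccl2, Nlrp3, Tlr4 and Ptgs2 had none. In these cells the monocyte marker list stood at 223 and 268 CPM under HFD and 458 and 615 under ND. Most of that sum was 1 gene, Ly6c2, with 38, 38, 85 and 76 UMIs, which was itself called (log2 ratio -1.35, edgeR adjusted p = 0.00022). The part of the list in the Ccl4 and Nfkbia values was not tested. In simulated counts at this depth, again over genes of all levels with a common spread, edgeR recovered 38.5% of 2-fold and 89.0% of 4-fold changes.

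In the other cell types no gene of the 10 was called. Nfkbia, the most widely expressed of them, gave 128, 102, 136 and 139 UMIs in Leydig-like cells, where the libraries were close to each other (log2 ratio 0.018, SE 0.19, edgeR adjusted p = 0.97, beside 1.29% of genes called). Sertoli-like cells gave 28, 30, 68 and 35 UMIs, with ND 1 above the rest (log2 ratio -0.64, edgeR adjusted p = 0.46, beside 0.105% called). Fibroblast-like cells gave 11, 12, 2 and 6 UMIs, with HFD above ND (log2 ratio 1.66, edgeR adjusted p = 0.89, beside 0.0311% called).

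In germ cells the counts were low against the number of cells. Nfkbia gave 11, 12, 8 and 10 UMIs in pachytene spermatocytes (log2 ratio -0.070, 12.7% of genes called) and 17, 13, 11 and 14 in round spermatids (log2 ratio 0.55, edgeR adjusted p = 0.51, 1.28% called). Elongating spermatids gave 16, 10, 16 and 14 UMIs of Il1b (log2 ratio -0.16) and 11, 10, 21 and 15 of Ccl4 (log2 ratio -0.72, edgeR adjusted p = 0.32), beside 4.16% called. No gene of the 10 passed the filter in early spermatocytes, where 0.902% were called, and spermatogonia were too few to be tested.

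Ccl2 in Leydig-like cells turned on 1 cell. It gave 17, 2, 1 and 3 UMIs, and 14 of the 17 were in 1 cell of HFD 1. It did not pass the filter. With no filter it was called (log2 ratio 2.41, edgeR adjusted p = 0.035), where 425 of 25178 genes passed. Without HFD 2 its log2 ratio was 3.09, in a fit that leaves 1 HFD library.

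Il1b in round spermatids did not follow the macrophage-like cells. At 1.66 ± 0.249 TMM-scaled CPM under HFD and 1.54 ± 0.219 under ND (SD, n = 2), the diets overlapped, with a ratio of 0.098 on the log2 scale (SE 0.20, edgeR adjusted p = 0.86). The macrophage ratio minus the round spermatid ratio was -2.22 (SE 0.40, edgeR adjusted p = 0.00015), beside 0.0663% of 16600 genes that passed. Such differences between macrophage-like cells and another type had a p-value for 53 pairs of a gene of the 10 and a type, and this was the 1 that passed; in 10 of the 53 pairs the gene also passed the filter on low counts in the other type alone. Against the other types the share of genes passing was 0.032% (lymphocyte-like), 0.0442% (Leydig-like), 0.0838% (Sertoli-like), 0.207% (fibroblast-like), 0.0726% (early spermatocytes), 0.0855% (pachytene) and 0.0825% (elongating). Without ND 1 it was -2.40 (edgeR adjusted p = 0.19) and without ND 2 -2.05 (edgeR adjusted p = 0.82). Against elongating spermatids the difference for Il1b was -1.90 (SE 0.55, edgeR adjusted p = 0.22).

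**Figure D4:**
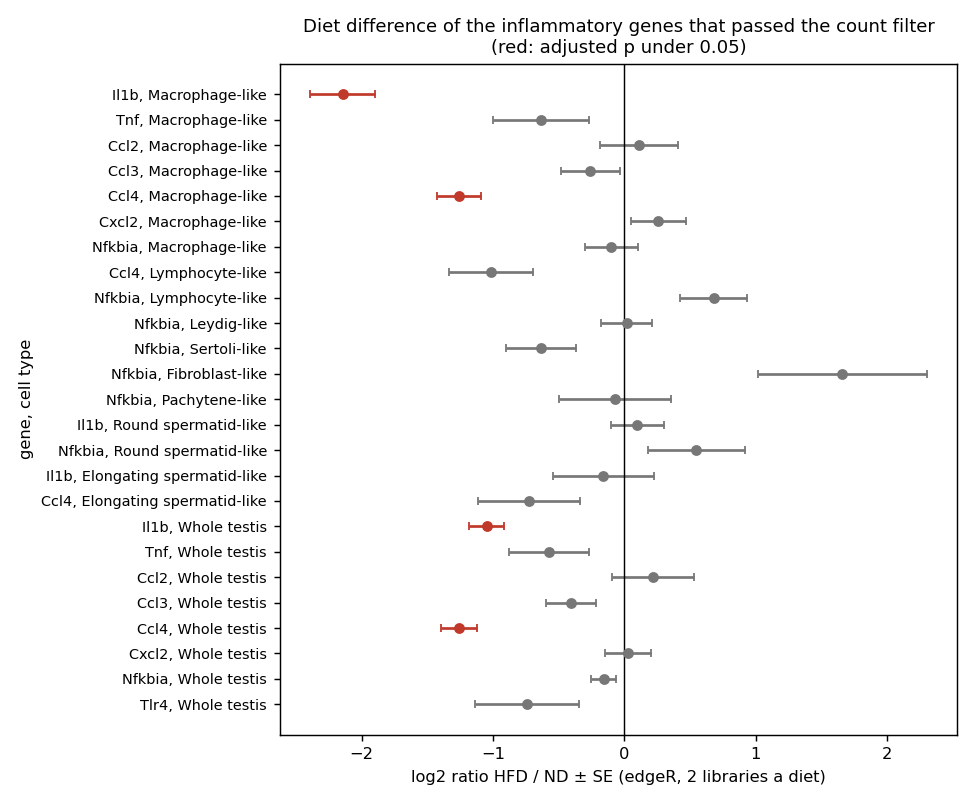
Log2 ratio of HFD to ND (horizontal axis) for each inflammatory gene and cell type that passed the filter on low counts, with whiskers of 1 SE and red points for an adjusted p under 0.05. The red points are Il1b and Ccl4 in macrophage-like cells, at -2.15 and -1.26, and in the whole testis, at -1.05 and -1.26.

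Summed over all kept cells, as a bulk sample of the testis would be, Il1b and Ccl4 fell again and none of the 10 rose. In such sums fewer cells of a type and less RNA per cell cannot be told apart. The background was wide here, since 34.3% of 25470 genes passed and 18.9% were lower under HFD, so 2 of 8 tested genes lower is near it. Il1b gave 105, 106, 200 and 215 UMIs (log2 ratio -1.05, SE 0.13, edgeR adjusted p = 5.1e-05) and Ccl4 132, 141, 275 and 348 (log2 ratio -1.26, SE 0.14, edgeR adjusted p = 2.0e-05), without overlap between the diets. Tnf, Ccl3, Tlr4 and Nfkbia also had lower TMM-scaled CPM in both HFD libraries but did not pass. Their log2 ratios were -0.57, -0.41, -0.74 and -0.16 (edgeR adjusted p = 0.16, 0.11, 0.17 and 0.23). Macrophage-like cells gave 6, 5, 2 and 8 of the Tlr4 UMIs, and all other cells gave 5, 4, 11 and 11. Ccl2 and Cxcl2 stood at log2 ratios of 0.22 and 0.026, and their diets overlapped.

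The origin of the Il1b UMIs differed by diet. Macrophage-like cells gave 21.9% and 21.7% of all Il1b UMIs under HFD and 49.0% and 58.1% under ND, while round spermatids gave 49.5% and 56.6% under HFD and 35.0% and 27.0% under ND. Outside the macrophage-like cells the Il1b UMIs came to 82, 83, 102 and 90, with the HFD libraries lowest by a small margin. Ccl4 came from macrophage-like cells for 59.1%, 70.9%, 71.6% and 77.9% of its UMIs.

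**Figure D5:**
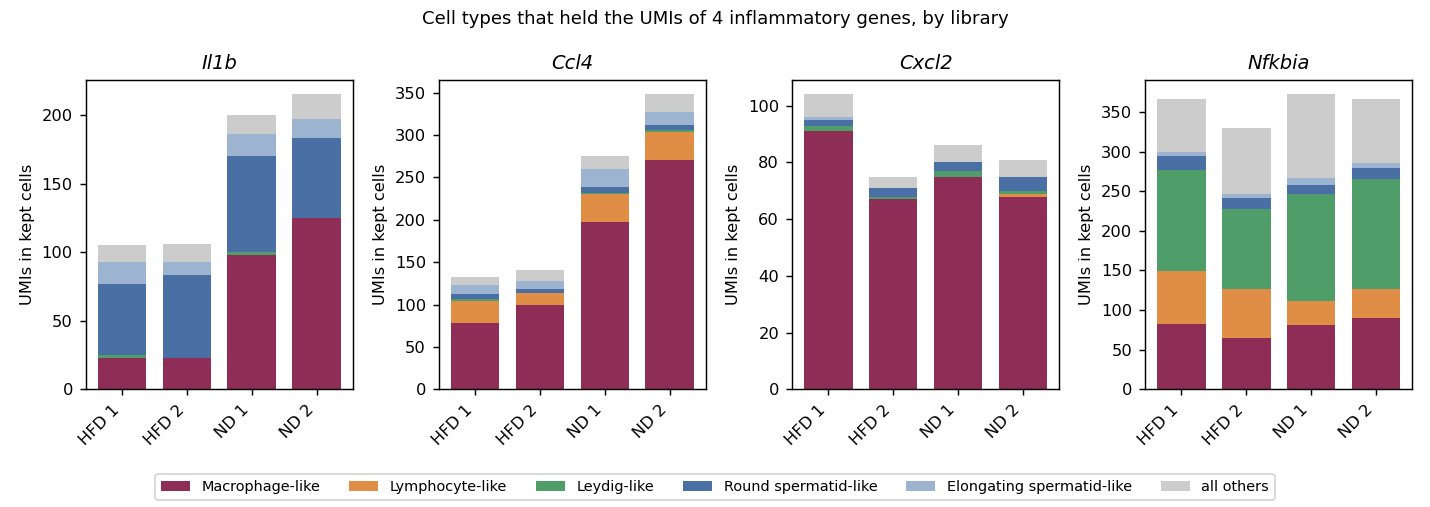
UMIs of Il1b, Ccl4, Cxcl2 and Nfkbia in each library, stacked by the cell type they came from. For Il1b the macrophage-like part is 23 and 23 UMIs under HFD and 98 and 125 under ND, and the part outside it is 82 and 83 against 102 and 90.

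In the whole testis the other ligands had 14 of 20 tested and 3 lower: Ccl12 (27, 20, 103 and 117 UMIs, log2 ratio -2.29), Ccl7 (19, 23, 35 and 58, -1.21) and Ccl6 (11, 12, 18 and 32, -1.18). Sensors and adaptors had 17 tested, 4 higher and 4 lower. The lipopolysaccharide-binding protein gene Lbp fell (160, 142, 303 and 281 UMIs, log2 ratio -1.02), while the kinase gene Irak4 rose (608, 508, 427 and 406 UMIs, 0.35). Of the 18 NF-kB genes 5 fell and 1 rose: Nfkb1 stood at -0.48 and Rela at 0.21. The receptors had 2 of 9 tested lower and the inflammasome list 2 of 10. These counts stand beside 18.9% of all genes lower and 34.3% called in either direction.

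Likeness of pattern was measured as Pearson's r of log2(CPM + 1) over 40 sums, 10 cell types in 4 libraries, as a description in which the sums of a library share its depth. Il1b was most like Ms4a6d (0.956), Vsig4 (0.954) and Ptpro (0.951). Ccl4 was most like Tnf (0.987), Fli1 (0.984) and Hcls1 (0.973), and Ccl3 was most like Lilr4b (0.985), Tnf (0.981) and Ccl4 (0.972). Cxcl2 was most like Vsig4 (0.972), Ccl2 most like Tlr2 (0.944), and Nfkbia most like Klf6 (0.947). Ccl4, Tnf and Ccl3 were thus alike among themselves, and all of them had UMIs in both macrophage-like and lymphocyte-like cells. Nlrp3, Tlr4 and Ptgs2 had under 100 UMIs and were left out.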

How the data were processed

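The authors deposited, for each library, a matrix of UMI counts per gene and barcode from 10x Genomics 3′ libraries, on genome build mm10 per the submitters' processing notes, with software version 3.0.2 per the file headers; strand use and filters are not given in the sources used here. Barcodes with under 200 genes or over 20% mitochondrial UMIs and Scrublet doublets (expected rate 0.1) were removed. Cells were clustered with scanpy 1.11.5 (2000 variable genes, 30 components, Leiden resolution 1) and named from markers. The 10 genes and those of the pathway, immediate early and interferon-induced lists were kept out of the variable genes. UMIs were summed per type and library and tested with edgeR 4.0.16 in R 4.3.3 (filterByExpr, TMM, quasi-likelihood), Benjamini-Hochberg adjustment over all genes of the type and a threshold of 0.05, in types with 50 cells in every library. Differences between types were interaction terms with the library as block. The scripts were tested on simulated data. DESeq2 1.42.0 and other filters, scalings and clusterings were alternatives. The 10 genes and the pathway and marker lists were chosen with earlier results of these data known. Named list genes were those called, up to 5 per list and direction; uncalled ones were chosen after their values were seen. Gene positions are from GENCODE M21, to which all 55450 identifiers matched.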

Additional observations from a re-analysis of the deposited data

Results flagged for a closer look

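The change of Il1b under HFD differed between macrophage-like cells and round spermatids by an interaction test, with a difference of log2 ratios of -2.22 (SE 0.40, edgeR adjusted p = 0.00015). Il1b gave 23 and 23 UMIs under HFD and 98 and 125 under ND in the macrophage-like cells, and 52, 60, 70 and 58 in round spermatids. Leaving out a library gave -2.40 to -2.05 with edgeR adjusted p from 0.0027 to 0.82, past the threshold without HFD 1 or HFD 2 and not past it without ND 1 or ND 2.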

How the results depend on the processing

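In macrophage-like cells Il1b and Ccl4 kept their direction and their call under all 15 planned settings. The mitochondrial limit of 10%, 1 of these, repeated the main run there with 5641 genes tested and 99 called, so it was no separate check. Among the fits added after seeing the data, the count of the 10 genes called went from 2 to 1 in cells with a resident marker UMI (Cxcl2), in cells with no such UMI (Il1b) and in the Slpi-led group alone (Il1b); fewer genes and cells entered those fits. In the other types it went from 0 to 1 (Ccl2 in Leydig-like cells) with no filter, where 425 of 25178 genes passed. It did so too without HFD 2, which leaves 1 HFD library (leave-one-out range 0 to 1). For the difference between types it went from 1 to 0 without ND 1 or ND 2 (range 0 to 1). In the whole testis the log2 ratio of Ccl3 was -0.63 without ND 1, and that of Ccl2 was 0.92 without ND 2. Each of these fits leaves 1 ND library.

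Reversed log2 ratios in macrophage-like cells, with the cause not tested, were the following. For Tnf 0.28 in the Slpi-led group. For Ccl2 -0.066 with doublets kept, -0.038 by marker gate, -0.13 without top cells and -0.40 in resident-marker cells. For Ccl3 0.12 with and 0.12 without a resident marker and 0.097 in the Slpi-led group, for Ccl4 0.40 with and for Cxcl2 -0.47 without a resident marker. For Nfkbia 0.092 without germ-led groups, 0.27 without a resident marker and 0.96 in the Slpi-led group. Elsewhere Nfkbia in Leydig-like cells was -0.023 at Leiden resolution 2. It was also -0.023 with the 10 genes and the other listed genes allowed among the variable genes. Il1b in round spermatids was -0.018 with doublets kept. Ranges with 1 library left out were -0.23 to 0.63 (Ccl2), -0.58 to 0.017 (Ccl3) and -0.23 to 0.019 (Nfkbia) in macrophage-like cells, -0.25 to 0.92 (Ccl2) and -0.19 to 0.21 (Cxcl2) in the whole testis, -0.021 to 0.0475 (Nfkbia, Leydig-like), -0.19 to 0.067 (Nfkbia, pachytene), -0.059 to 0.25 (Il1b, round spermatids) and -0.45 to 0.052 (Il1b, elongating spermatids). For differences between types they were -0.27 to 0.033 (Nfkbia, Leydig-like), -0.72 to 0.36 (Ccl4, lymphocyte-like) and -0.31 to 0.13 (Nfkbia, pachytene).

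Counts of all genes called ranged from 23 (DESeq2) to 101 in macrophage-like cells, 0 (marker gate) to 32 in lymphocyte-like, 41 to 3117 in Leydig-like cells and 5098 to 10173 in the whole testis. With the replicate number as a block Il1b was -2.14 and Ccl4 -1.26, both called, and 92 genes passed in macrophage-like cells. Deviations of same-numbered libraries correlated at -0.13 to 0.049 across the types. With 2 libraries per diet such a correlation cannot decide whether the numbers pair the libraries. A crossed pairing, added after seeing the data, called 1182 genes in Leydig-like cells. The pairing as numbered called 105 there, and the main run with no block called 158. Depth limits Nlrp3, Tlr4 and Ptgs2, with at most 12 UMIs per library in macrophage-like cells.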
